A study of Mus musculus with 10 samples.

Results

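The genes of fatty acid synthesis were followed in spatial expression data from a mouse model of MYC-driven hepatoblastoma, the childhood liver cancer that resembles embryonic liver. The set was fixed by gene symbol and holds 9 genes of the 31053 in the count tables: Fasn, Acaca, Acly, Scd1, Thrsp, Elovl6, Srebf1, Me1 and Pnpla3. All 9 were found once in every table, and 8 averaged at least 10 CPM over the 7 tissues, where CPM is a gene's molecules per 1000000 molecules counted over tissue. Every count of genes between tissues below is taken over the 8021 genes that reached this level. Where the scaling was changed or a tissue left out, the level was applied anew and the set of genes can differ. Pnpla3, a lipid-droplet hydrolase that is switched on together with lipogenesis, was the member that did not pass.

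The series holds 10 Visium sections of 7 mouse tissues known by number. NEJ146 was sectioned 4 times side by side, and the 6 others (NEJ638, NEJ654, NEJ677, NEJ687, NEJ634, NEJ723) gave 1 section apiece. A Visium spot is a patch of the section that can cover several cells, and its unique molecular identifiers (UMIs) count captured mRNA molecules. In the model, called ABC-Myc, the albumin promoter drives Cre in hepatocytes and their precursors, Cre removes a stop cassette, and the CAG promoter then drives human MYC. The mice were on a C57BL/6J background with free access to food and a 12 h light cycle, and controls were littermates that lacked either allele. Tumour-bearing mice were perfused with EDTA and collagenase before the organ was taken. Neither age, sex, feeding state nor hour of harvest was given for a section, and the tables have no entry for the human MYC transcript. The labels name hepatoblastoma for every sample and do not say which section is tumour. The study's text calls NEJ634, NEJ723, NEJ687 and NEJ146 tumours, and NEJ638, NEJ654 and NEJ677 are called livers below. Since the labels do not place sections in those groups and each label holds 1 tissue, no test was run between tissues. Values of the tissues with 1 section carry exact 95% Poisson intervals, which cover counting error only, and NEJ146 is given as mean ± SD over 4 sections of the same tissue, a technical spread.

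The sections held 61627315 to 117556249 UMIs, of which 39280329 to 117077925 lay over 1890 to 4878 tissue spots. The livers and the tumours differed in their cell markers. The 5 hepatocyte markers found (Alb, Apoa1, Ttr, Serpina1a, Fabp1) summed to between 105660 and 125652 CPM in the livers and between 16648 and 31749 CPM in the tumour sections, and the pericentral zonation markers to between 4185 and 6280 CPM against between 81.4 and 538 CPM. Mitosis genes summed to 242 CPM in NEJ638, 99.8 CPM in NEJ654, 47.4 CPM in NEJ677 and between 722 and 1359 CPM in the tumour sections. Erythroid markers summed to between 96.5 and 252 CPM in the livers and between 920 and 10199 CPM in the tumour sections. Bile duct (74.3 to 136 against 74.0 to 495 CPM), macrophage (202 to 360 against 110 to 1292 CPM) and stromal markers (229 to 571 against 342 to 1412 CPM) overlapped. The part of these cells in the differences between livers and tumours was not tested. Fewer cells of a type and less RNA per cell cannot be told apart in such sums or in any value below. Mitochondrial transcripts took between 6.78% and 7.22% of UMIs in the NEJ146 sections and between 2.46% and 3.86% elsewhere, and NEJ146 was also labelled total RNA where the others were labelled polyA RNA. Fat cells express the same pathway, and their 7 markers summed to between 90.5 and 291.7 CPM in the tumour sections and between 574 and 1464 CPM in the livers. Nearly all of this came from Car3 (515 to 1425 CPM in the livers and 4.17 to 220 CPM in the tumours) and from Fabp4, which had the opposite order (31.7 to 59.1 against 69.8 to 117 CPM), whereas Adipoq, Plin1 and Cfd had at most 3 UMIs in any section, Retn at most 25 and Lep 0.

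The pathway turns surplus carbon into fat. ATP citrate lyase, the product of Acly, releases cytosolic acetyl-CoA from citrate, acetyl-CoA carboxylase 1 (Acaca) converts it to malonyl-CoA, and fatty acid synthase (Fasn) builds palmitate from both with reducing power from NADPH, which malic enzyme (Me1) supplies in part. The elongase Elovl6 lengthens palmitate and the desaturase Scd1 introduces a double bond. The transcription factor SREBP-1 (Srebf1) drives most of these genes when insulin is high, and Thrsp (Spot 14), a small nuclear and cytosolic protein, is one of the genes most sensitive to feeding and thyroid hormone in the liver.

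The promoters of Acly, Fasn and Srebf1 are shown because Acly and Srebf1 shared a direction across the liver lobule and Fasn is the central enzyme of the pathway. RefSeq (GRCm38.p6) gave 11 promoter windows for 8 of the 9 members. The 250 bases before the start are printed, with matches to the CCAAT box (CCAAT on either strand) and the GC box (GGGCGG on either strand) in capitals. The Srebf1 window belongs to the most downstream of its annotated starts.
Acly (chr11:100528001-100528250, minus strand): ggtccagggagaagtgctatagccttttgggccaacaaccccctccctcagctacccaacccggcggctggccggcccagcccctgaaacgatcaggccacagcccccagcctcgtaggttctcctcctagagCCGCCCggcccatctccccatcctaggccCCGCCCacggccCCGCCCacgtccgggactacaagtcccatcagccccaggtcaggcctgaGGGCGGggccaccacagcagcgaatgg
Fasn (chr11:120824548-120824797, minus strand): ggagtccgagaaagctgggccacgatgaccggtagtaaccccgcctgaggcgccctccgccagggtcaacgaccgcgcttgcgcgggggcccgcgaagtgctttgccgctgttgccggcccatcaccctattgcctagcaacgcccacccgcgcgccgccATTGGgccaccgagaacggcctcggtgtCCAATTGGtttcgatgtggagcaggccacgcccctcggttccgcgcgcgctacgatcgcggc
Srebf1 (chr11:60210472-60210721, minus strand): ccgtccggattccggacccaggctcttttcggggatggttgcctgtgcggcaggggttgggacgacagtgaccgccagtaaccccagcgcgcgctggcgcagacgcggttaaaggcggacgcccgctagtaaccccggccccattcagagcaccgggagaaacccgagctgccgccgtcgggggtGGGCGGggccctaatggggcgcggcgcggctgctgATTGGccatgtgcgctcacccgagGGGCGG
The Acly window held 4 GC boxes and no CCAAT box, the Fasn window 3 CCAAT matches, of which 2 overlap, and no GC box, and the Srebf1 window 2 GC boxes and 1 CCAAT box. Among all 32851 windows of the same length, 32.7% held a GC box and 33.8% a CCAAT box. The sterol response element TCACNCCAC (1.05% of all windows) and the E-box CACGTG (6.02% of all windows), searched on both strands, matched none of the 11 windows of the members. Only these exact strings were sought, so variant forms and sites outside the 250 bases were not examined. With shares this low, no match in 11 windows does not show that the members lack such sites.

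Acly, Acaca and Fasn, the core of the pathway, had overlapping ranges in livers and tumours. Acly (chr11:100476353-100528000, minus strand; here and below gene positions are those of GENCODE M21 on GRCm38) was highest in liver NEJ638 (151 CPM) and next in tumour NEJ634 (143 CPM). Livers NEJ654 and NEJ677 followed with 109 and 107 CPM, and the other tumours lay below them, with 94.0 CPM in NEJ723, 85.1 CPM in NEJ687 and 77.2 ± 4.6 CPM (SD, n = 4) in NEJ146. The highest and the lowest tissue differed 1.96-fold, and the intervals of NEJ654 (106 to 112) and NEJ677 (104 to 111) overlapped. Acaca (chr11:84129672-84401651, plus strand) was highest in tumour NEJ687 (79.6 CPM) and lowest in liver NEJ654 (40.1 CPM). Between them came NEJ638 (73.0 CPM), NEJ634 (70.2 CPM), NEJ677 (60.2 CPM), NEJ146 (55.4 ± 2.9 CPM) and NEJ723 (49.9 CPM), so that livers and tumours were interspersed. Acaca shares 19126 bases with Gm11437 on the opposite strand, and Srebf1 and Me1 share 109 and 494 bases with opposite-strand neighbours, as do Elovl6 (34 bases) and Pnpla3 (307 bases), so that their UMIs depend on how strand was counted, which was not given in the sources used here. On the same strand, Acaca (2318 bases), Elovl6 (1671 bases), Me1 (1159 bases) and Pnpla3 (5323 bases) each overlap a further annotated transcript, and UMIs in shared stretches may have been assigned to neither gene or to the other one.

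Fasn (chr11:120805846-120824547, minus strand) spanned 2.13-fold. Liver NEJ638 was highest with 430 CPM, 1.23-fold over tumour NEJ634 (348 CPM). NEJ677 (325 CPM), NEJ687 (282 CPM), NEJ654 (265 CPM), NEJ146 (262 ± 25.7 CPM) and NEJ723 (202 CPM) followed, and the levels of NEJ654 and NEJ146 differed by less than the spread between the NEJ146 sections. Elovl6 (chr3:129532355-129638495, plus strand) had its highest levels in tumours NEJ687 (57.1 CPM) and NEJ723 (49.5 CPM). NEJ638 (44.5 CPM), NEJ634 (44.2 CPM), NEJ677 (40.2 CPM), NEJ654 (24.9 CPM) and NEJ146 (24.7 ± 3.1 CPM) came after them, and neither NEJ638 and NEJ634 nor NEJ654 and NEJ146 could be ordered within their errors. These orders depended on the scaling. With median-of-ratios size factors, which moved the median gene by between -0.38 (NEJ634) and 0.37 (NEJ677) on the log2 scale, Fasn and Acly were higher in every liver than in every tumour, and the liver minus tumour difference (log2 of mean CPM) turned from -0.14 to 0.29 for Acaca and from -0.26 to 0.20 for Elovl6.

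Scd1, Thrsp and Me1 were higher in every liver than in every tumour. These were 3 of the 8 members, against 18.1% of all 8021 genes with that order (5 of 8 against 33.4% with median-of-ratios size factors). Scd1 (chr19:44394455-44407879, minus strand) was highest in NEJ677 (2293 CPM), followed by NEJ654 (1549 CPM) and NEJ638 (619 CPM). The tumours followed in the order NEJ634 (208 CPM), NEJ146 (199 ± 35.0 CPM), NEJ687 (82.6 CPM) and NEJ723 (10.6 CPM), of which the first pair differed by less than the spread between sections. The lowest liver exceeded the highest tumour 2.98-fold, and the 7 tissues spanned 216-fold. Me1 (chr9:86581371-86695953, minus strand) was highest in NEJ677 (158 CPM), followed by NEJ638 (104 CPM) and NEJ654 (92.5 CPM). NEJ634 (44.9 CPM), NEJ146 (24.9 ± 2.2 CPM), NEJ723 (21.4 CPM) and NEJ687 (18.0 CPM) came after a gap of 2.06-fold. Scd1 and Me1 were thus the 2 members of 8 at least 2-fold above every tumour in every liver, an order found for 4.95% of all genes. No member was lower in every liver than in every tumour, where 44.1% of all genes were (28.9% with median-of-ratios size factors), and none by at least 2-fold, where 10.5% were. Without NEJ638, Srebf1 was lower in both remaining livers than in every tumour (1 of 8 members against 52.0% of genes), but NEJ654 (87.1 CPM) and NEJ146 (87.6 ± 5.0 CPM) differed by less than the spread between sections.

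Thrsp (chr7:97412938-97417730, minus strand) varied most, over a 310.1-fold range. It measured 1215 CPM in NEJ638, 180 CPM in NEJ677 and 86.3 CPM in NEJ654, then 62.5 CPM in NEJ634, 58.3 ± 5.8 CPM in NEJ146, 17.7 CPM in NEJ687 and 3.92 CPM in NEJ723. The livers did not overlap with the tumours, but the gap between the lowest liver and the highest tumour was 1.38-fold, smaller than the gap between the livers themselves. NEJ638 exceeded the next tissue 6.73-fold, and Thrsp was the 1 member of 8 at least 2-fold higher in NEJ638 than in every other tissue (0.374% of all genes). Srebf1 (chr11:60199089-60222581, minus strand) also separated the livers. It stood at 231 CPM in NEJ638, at 87.1 CPM in NEJ654 and at 46.995 CPM in NEJ677, while the tumours lay between 87.6 ± 5.0 (NEJ146) and 136 CPM (NEJ723), with 129 CPM in NEJ634 and 123 in NEJ687. Thrsp and Srebf1 were the 2 members of 8 at least 2-fold higher in NEJ638 than in both other livers, as were 3.19% of all genes. At the low end, Scd1 and Thrsp were at least 2-fold lower in NEJ723 than in every other tissue, 2 of 8 members against 2.54% of all genes.

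**Figure D1:**
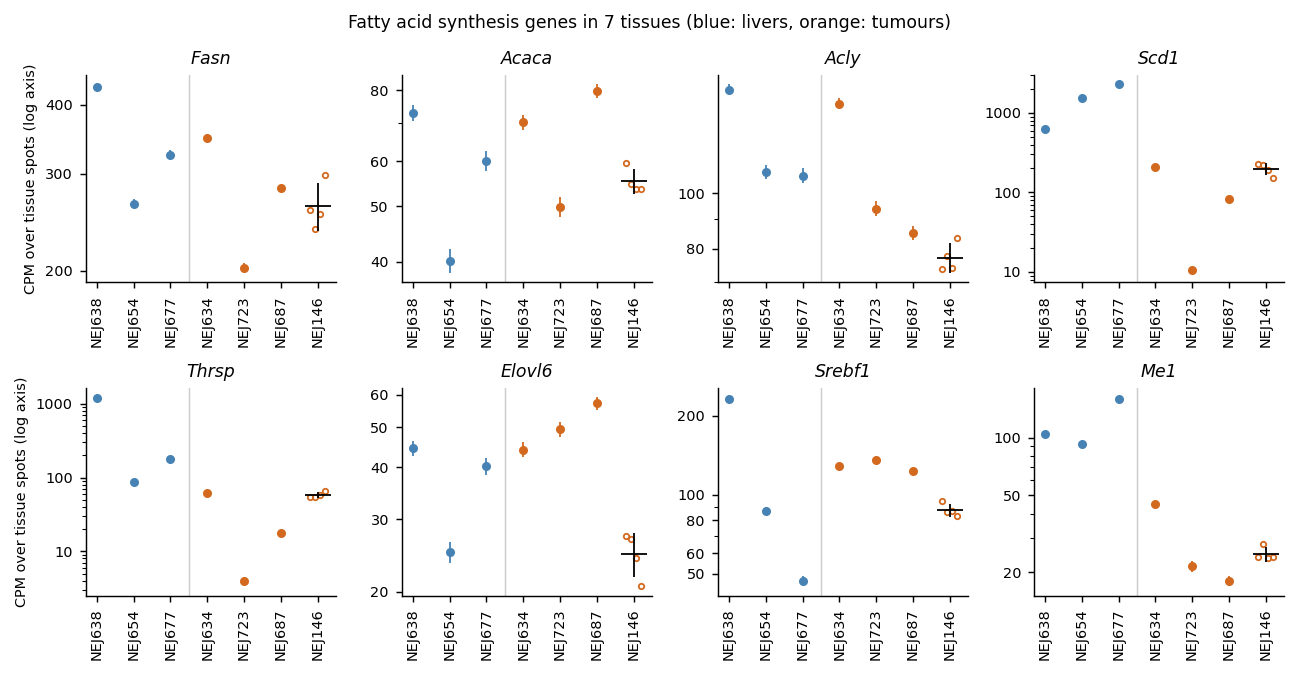
CPM over tissue spots (y axis, log scale, a separate range for each gene) of 8 fatty acid synthesis genes in the 7 tissues (x axis), with livers in blue and tumours in orange. Bars on single sections are 95% Poisson intervals, and open circles are the 4 NEJ146 sections with their mean and SD in black. Scd1, Thrsp and Me1 are higher in all 3 livers than in the 4 tumours, while Fasn, Acaca, Acly, Elovl6 and Srebf1 overlap.

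Pnpla3 (chr15:84167837-84187236, plus strand) was close to absent. It had no UMI in NEJ638, where 3 UMIs would have been 0.0586 CPM, and between 0.0229 CPM (1 UMI in NEJ723) and 0.283 CPM (16 UMIs in NEJ634) elsewhere, so no order of the tissues was read from it.

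Other genes of the wider programme, taken from fixed lists, gave a background for these orders. The median difference between livers and tumours (log2 of the mean CPM of the 3 livers over that of the 4 tumours, with 1 CPM added) was -0.41 over all 8021 genes and 0.30 over the 8 members. It was 1.33 over 6 genes of sugar entry, Pklr and Khk among those higher in every liver, 1.18 over 9 regulators of lipogenesis and 1.02 over 18 genes of cholesterol synthesis, of which 10 were higher in every liver. Among the regulators, Mlxipl, the sugar-sensing factor ChREBP, stood between 165 and 204 CPM in the livers and between 51.8 and 98.7 CPM in the tumours. Nr1h3, the sterol sensor LXRα, stood between 83.4 and 95.4 CPM in the livers and between 20.99 and 42.5 CPM in the tumours. Insig2, which holds SREBP back in the endoplasmic reticulum, was at 76.8 CPM in NEJ638 and at 316 and 312 CPM in the other livers, so that the liver with most Srebf1 had least Insig2, and it stood between 17.9 and 58.8 CPM in the tumours. Fatty acid oxidation, the opposing pathway, had 10 of its 14 genes higher in every liver and 1 lower, with a median difference of 0.85. Triglyceride synthesis had 1 of 6 higher (Lpin1) and a median of 0.20, and lipid droplet genes had 3 of 8 higher, 2 lower and a median of -0.31. Beside these counts, 18.1% of all 8021 genes were higher and 44.1% lower in every liver than in every tumour.

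For several steps of the pathway a second gene exists, and the level of such partners was compared between tissues. Scd2 (chr19:44293674-44306864, plus strand), the desaturase of brain and of embryonic liver, stood between 4.33 and 11.4 CPM in the livers and at 932 CPM in NEJ634, 772 CPM in NEJ687, 569 CPM in NEJ723 and 464 CPM in NEJ146. The lowest tumour exceeded the highest liver 40.7-fold. Scd1 made up between 98.2% and 99.8% of the UMIs of both genes in the livers, and 29.96% in NEJ146, 18.2% in NEJ634, 9.66% in NEJ687 and 1.83% in NEJ723. Acacb, whose product makes malonyl-CoA at the mitochondrion to restrain oxidation, was, like Scd1, higher in every liver than in every tumour, with 24.1 to 31.2 CPM in the livers and between 3.45 and 12.4 CPM in the tumours, while Acaca overlapped.

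The genes that supply NADPH and acetyl-CoA were split as well. Besides Me1, Idh1 was higher in every liver (305 to 366 CPM) than in every tumour (77.9 to 119 CPM). Of the 4 pentose phosphate genes of the list, 3 had the opposite order, with G6pdx, the entry enzyme of that route, at 2.21 to 3.42 CPM in the livers and 20.3 to 36.5 CPM in the tumours, and with Pgd (33.4 to 40.7 against 73.0 to 112 CPM) and Tkt (69.4 to 76.1 against 142 to 236 CPM) also higher in every tumour, while Taldo1 overlapped (136 to 162 against 112 to 172 CPM). Of the 6 genes of acetyl-CoA and citrate supply, 3 were higher and 2 lower in every liver than in every tumour, with a median difference of 0.23. Acss2, which makes acetyl-CoA from acetate, stood at 95.5 to 116 CPM in the livers and at 9.30 to 23.9 CPM in the tumours. Slc25a1, the citrate carrier that feeds Acly, stood at 183 to 198 CPM against 89.2 to 125 CPM. Pcx, the pyruvate carboxylase, had the opposite order, with 317 to 328 CPM in the livers and 361 to 676 CPM in the tumours. The order of Pcx depended on the scaling. Its gap between 328 and 361 CPM was smaller than the 0.37 (log2) by which median-of-ratios size factors moved NEJ677. Over all 8021 genes, 18.1% were higher and 44.1% lower in every liver than in every tumour.

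**Figure D2:**
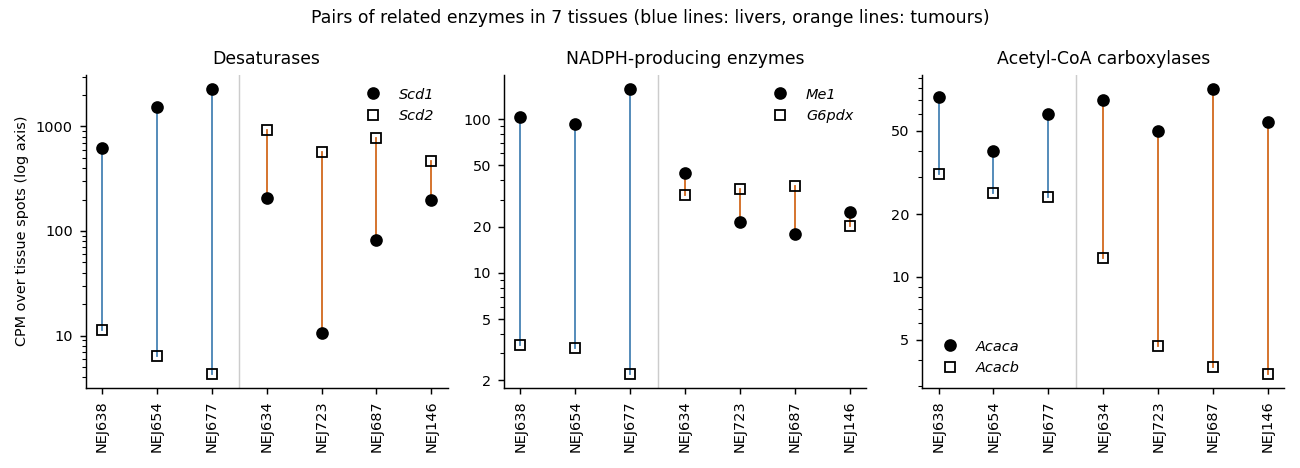
CPM over tissue spots (y axis, log scale) of 3 pairs of related genes in the 7 tissues (x axis), the member of the set as a filled circle and its partner as an open square, joined by a blue line in livers and an orange line in tumours. Scd2 lies below Scd1 in the 3 livers and above it in the 4 tumours, G6pdx is lower in the livers than in the tumours, and Acacb is higher in the livers.

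Feeding and daytime move this pathway in liver, and genes that report them differed among the livers, in which Thrsp and Srebf1 lay far apart. Dbp, an output gene of the clock, stood at 209 CPM in NEJ638, at 48.2 CPM in NEJ677 and at 2.99 CPM in NEJ654, and Arntl, which peaks in the opposite phase, at 1.41, 5.24 and 18.8 CPM in the same order. Per3 stood at 51.0, 5.58 and 1.39 CPM. The fasting gene Pck1 stood at 1437, 818 and 555 CPM. Igfbp1, which insulin represses, stood at 197, 204 and 51.7 CPM in the livers and at 439 to 1110 CPM in the tumours. Angptl4, another fasting gene, was highest in NEJ677 (162 CPM, against 46.0 CPM in NEJ638 and 48.8 CPM in NEJ654). Thrsp had the order of Dbp, Per3 and Pck1 in the livers, and Srebf1 shared only its highest liver with them. The part of feeding state, hour and mitosis in the levels of Thrsp and Srebf1 was not tested.

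Among the genes outside the set that reached 10 CPM on average, those whose log2 levels over the 7 tissues were most like the mean profile of the members were Lamtor2 (Pearson r = 0.983 over 7 tissues), Pdzk1 (0.974), Ttc23 (0.974), Ccnd1 (0.971) and Cish (0.971). Each member is itself part of that mean, which the widest-ranging genes weigh on most, so their own values are partly set by construction. The same measure was 0.967 for Thrsp, 0.887 for Fasn, 0.874 for Me1, 0.864 for Scd1 and 0.701 for Acly, but 0.215 for Acaca, -0.17 for Elovl6 and -0.0012 for Srebf1.

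To place the genes in the lobule, the tissue spots of each liver were ordered by the share of pericentral markers (Glul, Cyp2e1, Cyp1a2, Oat, Slc1a2) among the UMIs of these and the periportal markers (Cyp2f2, Hal, Hsd17b13, Ass1, Pck1), and cut into 3 equal parts called terciles below. Blood flows through the lobule from the portal to the central vein, and liver enzymes are arranged along that path. Counts were summed per tercile (6 libraries) and the pericentral tercile was tested against the periportal tercile with edgeR's quasi-likelihood test with tissue as a block and Benjamini-Hochberg adjustment over 12539 genes. Acly and Srebf1 were higher in the periportal tercile, 2 of 8 members against 8.79% of all genes. Me1 was higher in the pericentral tercile, 1 of 8 members against 7.74% of all genes.

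Acly had the clearest zonation. Its periportal and pericentral levels were 204 and 107 CPM in NEJ638, 151 and 71.3 CPM in NEJ654, and 139 and 75.1 CPM in NEJ677. Every pericentral value lay below every periportal one, and the middle tercile lay between them in each liver (153, 108 and 108 CPM). The log2 difference was -1.01 (SE 0.061, adjusted p = 8.5e-07, edgeR). This p, like those below, rests on a variance for which edgeR borrows from all genes, with 1 section for each liver. For a single gene that variance can be smaller than the spread of its own difference among livers. Srebf1 fell from 253 to 211 CPM in NEJ638, from 102 to 77.4 CPM in NEJ654 and from 54.7 to 40.0 CPM in NEJ677. The direction was shared by 3 of 3 livers although their levels lay far apart, and the log2 difference was -0.40 (SE 0.065, adjusted p = 0.0017, edgeR). Me1 rose from 79.0 to 132 CPM in NEJ638, from 75.9 to 110 CPM in NEJ654 and from 115 to 207 CPM in NEJ677, a log2 difference of 0.66 (SE 0.068, adjusted p = 5.7e-05, edgeR). Without the tissue block none of these 3 calls was made (adjusted p = 0.089 for Acly, 0.74 for Me1 and 1.0 for Srebf1 in edgeR). That fit ignores the pairing of terciles and counts the differences in level between livers as error.

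Fasn and Scd1 did not share one direction. Fasn was higher in the pericentral tercile of NEJ638 (458 against 407 CPM) and NEJ677 (345 against 302 CPM) and higher in the periportal tercile of NEJ654 (316 against 224 CPM). Scd1 followed the same pattern, with 713 against 529 CPM in NEJ638, 2491 against 1859 CPM in NEJ677, and 1374 against 1655 CPM in NEJ654. Over the 3 livers the log2 difference was -0.09 for Fasn (95% interval -0.34 to 0.17, adjusted p = 0.69, edgeR) and 0.15 for Scd1 (-0.12 to 0.42, adjusted p = 0.46, edgeR). Both intervals rest on the variance borrowed from all genes. The log2 ratios of single livers ran from -0.50 (NEJ654) to 0.19 (NEJ677) for Fasn and from -0.27 (NEJ654) to 0.43 (NEJ638) for Scd1. With NEJ654, the only liver of opposite direction, left out, NEJ638 and NEJ677 remained. Scd1 then passed the test in edgeR (0.40, adjusted p = 0.035) and Fasn did not (0.15, adjusted p = 0.37). The call for Scd1 thus depends on leaving out the liver that differed.

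The other members showed no call over the 3 livers. Elovl6 had a log2 difference of 0.24 (95% interval 0.0046 to 0.47, adjusted p = 0.16, edgeR), with 30.5 CPM in the periportal and 48.6 CPM in the pericentral tercile of NEJ677, 41.7 and 47.2 CPM in NEJ638, and 26.3 and 25.5 CPM in NEJ654. Thrsp had -0.17 (-0.33 to -0.0079, adjusted p = 0.15, edgeR) and was level in NEJ638 (1215 and 1222 CPM). With that liver left out, only NEJ654 and NEJ677 remained, and Thrsp passed the test as higher in the periportal tercile (-0.28, adjusted p = 0.022, edgeR). Acaca had -0.0036 (-0.18 to 0.17, adjusted p = 0.99, edgeR). Pnpla3 had too few UMIs to be tested.

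**Figure D3:**
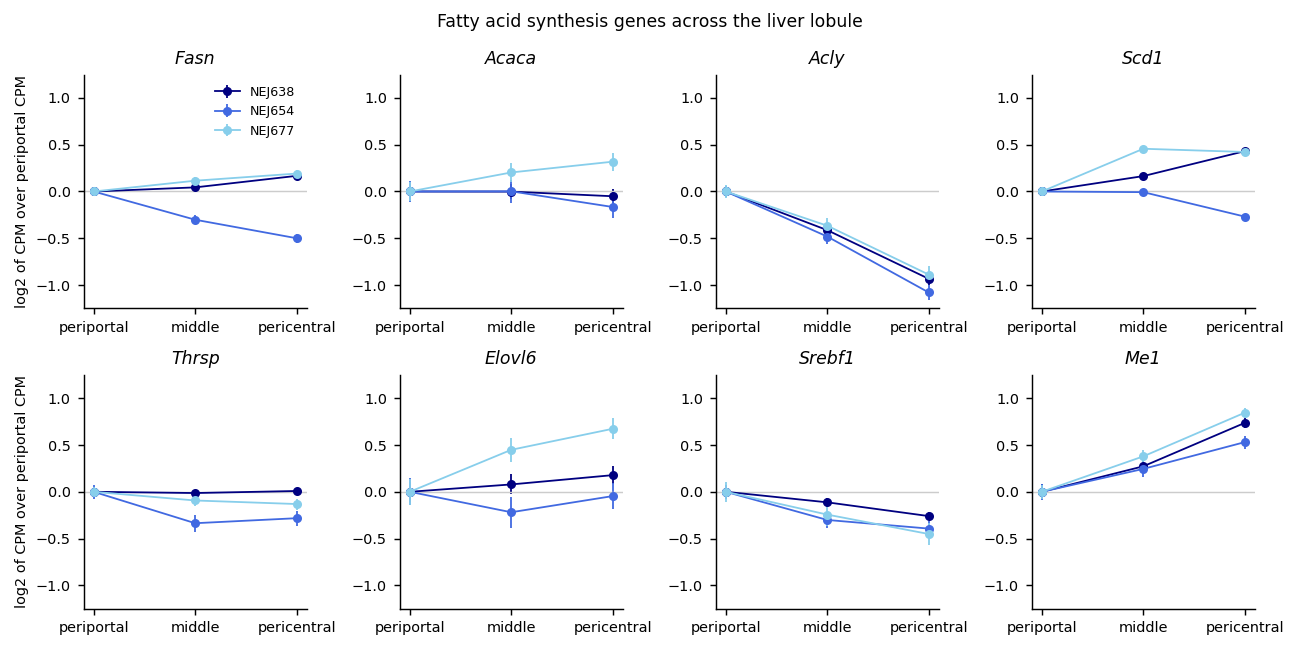
log2 of the CPM over the periportal CPM of the same liver (y axis) in the periportal, middle and pericentral tercile (x axis) for 8 fatty acid synthesis genes, with 1 line for each liver and bars for the 95% counting error of each tercile. Acly and Srebf1 fall and Me1 rises toward the central vein in the 3 livers, and NEJ654 parts from the other livers for Fasn and Scd1.

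The neighbours of the pathway were zoned in part. Among 6 genes of acetyl-CoA and citrate supply, Cs, the citrate synthase, was higher in the pericentral tercile (log2 difference 0.71, adjusted p = 3.0e-05, edgeR). Of 11 regulators, Mid1ip1, the closest relative of Thrsp, and Insig1, a target of SREBP, were higher in the periportal tercile (-0.44, adjusted p = 0.030, and -0.34, adjusted p = 0.0078, edgeR), the direction of Srebf1, and Mlxipl in the pericentral tercile (0.23, adjusted p = 0.029, edgeR). Of 5 genes of NADPH supply, Idh1 alone passed, on the side of Me1 (0.27, adjusted p = 0.010, edgeR). The pericentral tercile was higher for 5 of 10 other desaturases and elongases, led by Elovl3 (2.03, adjusted p = 5.6e-07, edgeR), and for 11 of 15 genes of fatty acid oxidation, with 0 lower in both lists. Malonyl-CoA and acyl-CoA handling had 4 of 9 genes higher, led by the thioesterase Acot1 (2.12, adjusted p = 4.5e-08, edgeR), and 0 lower. Cholesterol synthesis had 6 of 18 genes higher and 2 lower. The median log2 difference was -0.05 over the 8 members, 0.32 over fatty acid oxidation, 0.12 over cholesterol synthesis and 0.00018 over all genes.

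Markers of other cells moved with the terciles. The 5 bile duct markers were all higher in the periportal tercile and summed to 299, 143 and 161 CPM there against 43.6, 24.5 and 22.4 CPM in the pericentral tercile of NEJ638, NEJ654 and NEJ677. The 5 macrophage markers were all higher there too, with sums of 204, 415 and 354 CPM against 174, 288 and 205 CPM. Of the 5 hepatocyte markers, Alb and Serpina1a were lower in the pericentral tercile (log2 difference -0.66, adjusted p = 0.00042, and -0.42, adjusted p = 0.00069, edgeR) and Fabp1 was higher (0.48, adjusted p = 0.015, edgeR). Mitochondrial genes summed to 28909, 33568 and 31419 CPM in the periportal and 22488, 26827 and 24125 CPM in the pericentral tercile of NEJ638, NEJ654 and NEJ677. Pericentral spots held more UMIs, with medians of 14923.5, 19079 and 16079 against 11668, 17143 and 15391. The part of these cells, of RNA content and of depth in the differences of Acly, Srebf1 and Me1 was not tested. Of the 7 adipocyte markers, Fabp4 and Car3 were abundant enough to be tested and were higher in the pericentral tercile. Adipoq and Cfd had at most 1 UMI in any liver, and Plin1, Retn and Lep had 0.

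Within the tumours, spots were ordered by Afp, the fetal liver protein made by these tumours, and separately by 15 mitosis genes, and the highest tercile was tested against the lowest over the 4 tumours. No gene of 13540 passed edgeR's test for Afp (0% called, 2463 genes or 18.2% at an unadjusted p under 0.05, and 342 by DESeq2). Afp itself, which ordered the spots, was not called either. From the lowest to the highest tercile it went from 2570 to 6158 CPM in NEJ634 and from 2421 to 4156 CPM in NEJ723. In NEJ687 it went from 2921 to 5345 CPM and in NEJ146 from 644 to 4169 CPM. A member that did not pass therefore cannot be read as unchanged. Elovl6 came closest to passing among the members. It was higher in the Afp-high tercile of all 4 tumours, with 49.7 against 37.5 CPM in NEJ634, 55.0 against 42.3 CPM in NEJ723, 61.3 against 50.6 CPM in NEJ687 and 31.0 against 21.2 CPM in NEJ146. The log2 difference was 0.40 (SE 0.054, adjusted p = 0.12 in edgeR and 0.0011 in DESeq2). Acaca (0.22, adjusted p = 0.20) and Srebf1 (0.42, adjusted p = 0.20) were above 0 and Thrsp (-0.74, adjusted p = 0.23) and Me1 (-0.56, adjusted p = 0.27) below 0 in edgeR without passing, each at an unadjusted p under 0.05. Markers of other cells moved with this split. From the Afp-low to the Afp-high tercile, erythroid markers went from 1518 to 319 CPM in NEJ634, from 3771 to 1436 CPM in NEJ723 and from 11439 to 5941 CPM in NEJ687, but from 7108 to 8187 CPM in NEJ146. Hepatocyte markers went from 26297 to 40320 CPM in NEJ634, from 24519 to 28583 CPM in NEJ723 and from 22849 to 26604 CPM in NEJ687, but from 24678 to 20532 CPM in NEJ146. In NEJ146, macrophage markers went from 466 to 707 CPM and pericentral markers from 759 to 281 CPM. Their part in the differences of the members was not tested.

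Scd1 was the member on which the tumours parted. It was higher in the Afp-high tercile of NEJ634 (305 against 163 CPM) and NEJ723 (13.0 against 8.44 CPM) and lower in that of NEJ687 (79.3 against 101 CPM) and NEJ146 (92.9 against 352 CPM). The log2 difference over the 4 tumours was -0.23 with a 95% interval of -1.47 to 1.01 (adjusted p = 0.84, edgeR). Thrsp was lower in the Afp-high tercile of NEJ634 (36.7 against 91.8 CPM) and NEJ146 (38.7 against 76.6 CPM), while in NEJ723 (3.16 against 3.99 CPM) and NEJ687 (19.4 against 17.6 CPM) the counting interval of the ratio included no difference.

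For the mitosis genes, edgeR called 8 genes higher and 4 lower of 13465 (0.0594% and 0.0297%). All 8 higher genes belong to the 15 that ordered the spots and so restate the split. Of the 8 members 0 were called (2721 genes, or 20.2%, at an unadjusted p under 0.05, Thrsp among them). Thrsp was lower in the mitosis-high tercile of all 4 tumours, with 33.6 against 89.3 CPM in NEJ634, 2.47 against 5.55 CPM in NEJ723, 15.7 against 18.8 CPM in NEJ687 and 46.1 against 68.1 CPM in NEJ146. Its log2 difference was -0.90 (SE 0.19, adjusted p = 0.11 in edgeR and 0.00054 in DESeq2). Macrophage markers also summed to 329 against 740 CPM and bile duct markers to 612 against 430 CPM in NEJ634. In NEJ146 the pericentral markers summed to 263 against 748 CPM, bile duct markers to 89.4 against 206 CPM and hepatocyte markers to 17779 against 26273 CPM. Erythroid markers summed to 2881 against 2102 CPM in NEJ723, 9754 against 7199 CPM in NEJ687 and 9184 against 8325 CPM in NEJ146. In NEJ634 they stood at 912 against 921 CPM. Hepatocyte markers summed to 24106 against 29702 CPM in NEJ723. Bile duct markers summed to 56.6 against 106 CPM in NEJ687 and 126 against 107 CPM in NEJ723. Mitochondrial genes summed to 32689 against 43154 CPM in NEJ634, 25799 against 30838 CPM in NEJ723, 31226 against 35911 CPM in NEJ687 and 64391 against 72740 CPM in NEJ146. Median UMIs per spot were lower in the mitosis-high tercile of NEJ634 (24188.5 against 32845.5), NEJ723 (18330 against 20419) and the NEJ146 sections (15564 to 19883.5 against 19789.5 to 24794.5), and higher in that of NEJ687 (12915 against 12045). The part of these cells, of RNA content and of depth was not tested. Scd1 stood at 84.4 against 361 CPM in NEJ146, 76.4 against 90.6 CPM in NEJ687 and 200.5 against 220 CPM in NEJ634, while in NEJ723 (10.6 against 12.4 CPM) the counting interval of the ratio included no difference, with a log2 difference of -0.81 (95% interval -1.62 to 0.0082, adjusted p = 0.25, edgeR). None of the core enzymes passed, with log2 differences of 0.04 for Acly, 0.06 for Acaca and 0.07 for Fasn.

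**Figure D4:**
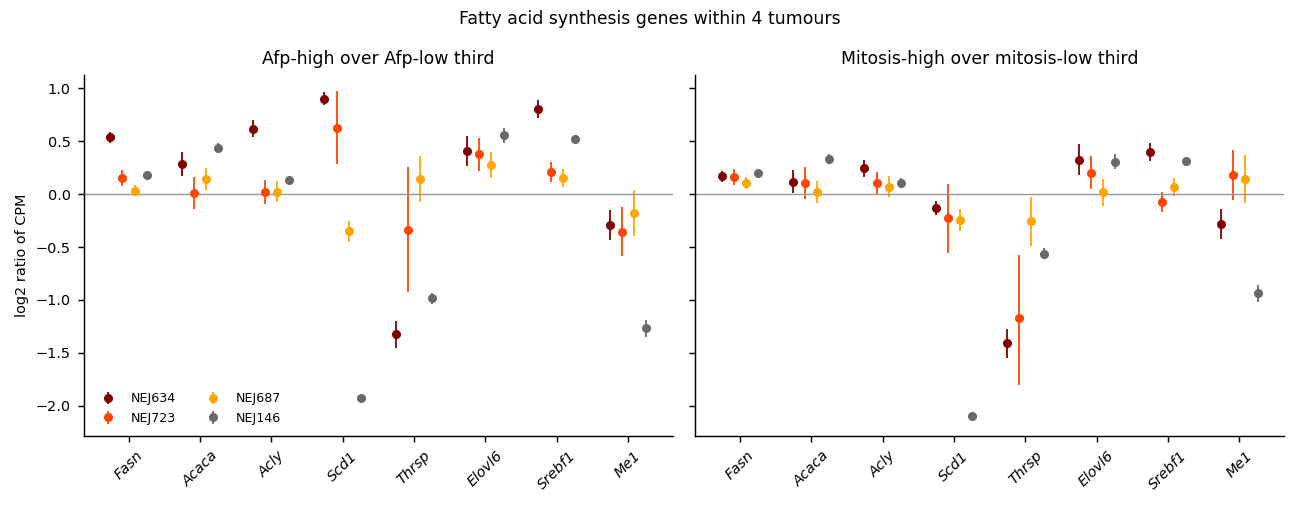
log2 ratio of CPM (y axis) between the highest and the lowest tercile of spots by Afp (left) and by mitosis genes (right) for 8 fatty acid synthesis genes (x axis) in the 4 tumours (colours), with exact 95% counting intervals as bars. Elovl6 lies above 0 for Afp and Thrsp below 0 for mitosis in 4 of 4 tumours, and Scd1 spreads from 0.90 in NEJ634 to -1.92 in NEJ146 for Afp.

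In NEJ146, Scd1 and Me1 were higher where Afp was low. Split section by section, Scd1 stood at 414, 361, 334 and 299 CPM in the Afp-low tercile of sections 1 to 4 and at 101, 110, 93.1 and 65.8 CPM in the Afp-high tercile. Me1 stood at 38.6, 40.1, 36.9 and 40.3 CPM against 13.5, 20.8, 15.7 and 14.1 CPM. Scd2 had the reverse order, with 291, 241, 272 and 292 CPM against 684, 649, 657 and 551 CPM. The values did not overlap for any of the 3 genes. Cyp2e1, a pericentral enzyme of normal liver, moved with Scd1, from 481, 452, 411 and 341 CPM in the Afp-low tercile to 110, 112, 103 and 91.99 CPM. Fasn stood at 235, 224, 241 and 280 CPM in the Afp-low tercile and at 271, 254, 267 and 314 CPM in the Afp-high tercile, higher in 4 of 4 sections by a smaller ratio than the other genes. Spots of the Afp-low tercile also had more UMIs, with medians of 22239 to 28523.5 against 15124 to 18277, and the part of depth in these differences was not tested. The study's methods separate neoplasia from non-neoplastic hepatocytes and stroma by morphology, but the labels give no such class per spot. The part of non-neoplastic liver in these and the other tumour splits was not tested.

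Cut into a grid of 6 by 6 regions with at least 20 tissue spots each, the sections of NEJ146 gave Scd1 between 28.2 and 674 CPM in section 1 and between 16.7 and 543 CPM in section 4. The coefficient of variation beyond counting error was 97.2%, 84.0%, 92.8% and 108% for Scd1 in sections 1 to 4, and between 0.439% and 0.914% of genes had a larger one. For Me1 it was between 54.3% and 78.04%, for Thrsp between 33.1% and 36.1%, and for Fasn between 11.4% and 15.8%, where the median gene had 11.7% to 14.8%. Over the 33 to 36 regions of a section, Scd1 and Cyp2e1 had a Pearson r of 0.96 to 0.97, Scd1 and Me1 0.81 to 0.90, and Scd1 and Scd2 -0.81 to -0.73. These describe regions of the same sections, which share libraries and lie side by side.

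**Figure D5:**
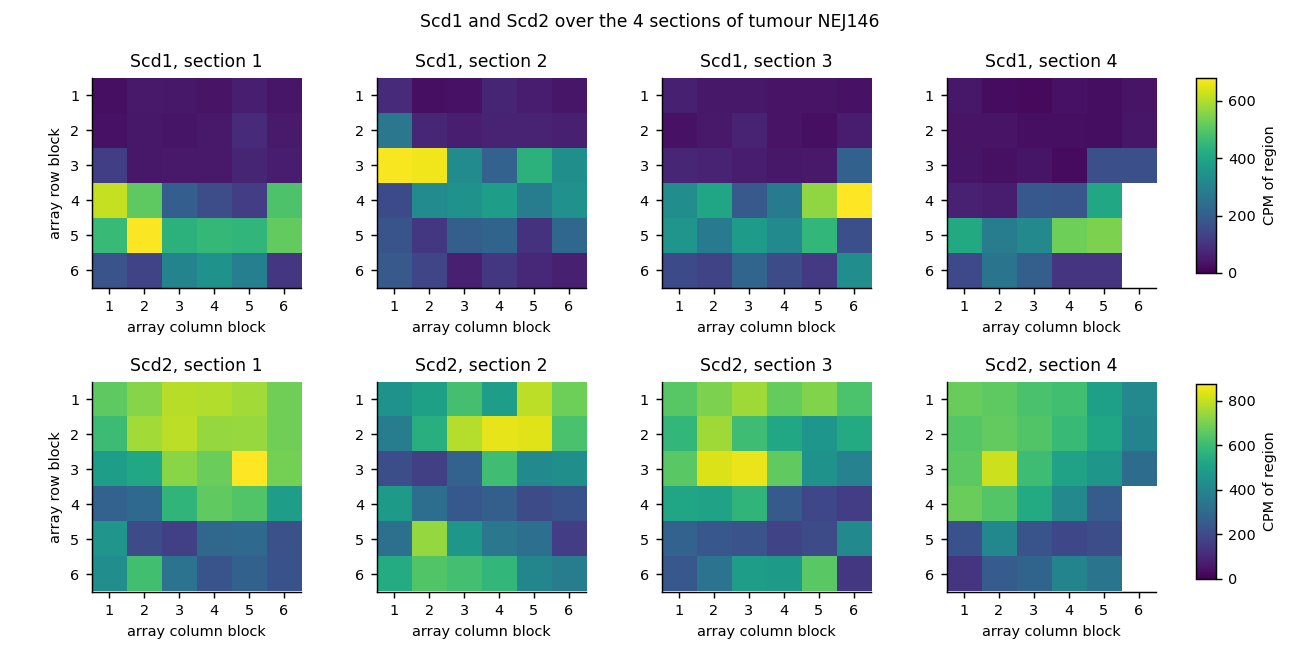
CPM of Scd1 (top) and Scd2 (bottom) in the 6 by 6 regions of the 4 adjacent sections of tumour NEJ146, with array column blocks on the x axis, array row blocks on the y axis, and white where a region held under 20 tissue spots. A band of regions, in the lower rows of sections 1, 3 and 4 and in the middle rows of section 2, is high in Scd1, and most of it is low in Scd2.

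The other tumours had other patterns. In NEJ634, Thrsp varied most among the 8 members other than Pnpla3, from 20.7 to 122 CPM over 20 regions (coefficient of variation beyond counting 57.99%, exceeded by 1.52% of genes), and it ran against Srebf1 (r = -0.91 over 20 regions) and Acly (r = -0.75), while Fasn went with Acly (r = 0.92), and Scd1 ran against Cyp2e1 (r = -0.69). Its Afp-low tercile, where Thrsp was high, also held more macrophage markers (884 against 188 CPM), bile duct markers (706 against 296 CPM) and erythroid markers (1518 against 319 CPM), whose part was not tested. In NEJ687, Thrsp lay between 7.86 and 75.2 CPM over 34 regions with a median of 17.5 CPM (coefficient of variation 54.9%, exceeded by 1.02% of genes), and the spread rested on few regions, since the 10th to 90th percentile ran from 11.0 to 20.99 CPM, and Scd1 went with Cyp2e1 (r = 0.82) as in NEJ146. In NEJ723, where Scd1 and Thrsp were lowest, the coefficient was 6.51% for Acly, 8.66% for Fasn, 9.08% for Srebf1 and 23.3% for Me1 against a median gene of 7.68%. Among the livers, NEJ638 had the largest variation of Fasn (18.1%, exceeded by 8.55% of genes), and Fasn and Acly (r = 0.88) and Acly and Srebf1 (r = 0.89) went together over its 31 regions.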

How the data were processed

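Spatial RNA-seq libraries (Visium) of 10 sections were analysed. The values are UMI counts per gene and spot as deposited by the authors, unnormalized and 1 matrix per section. The submitters' processing notes name Cell Ranger 6.0 for NEJ146 and Space Ranger 1.3 with the mm10 build for the others, the file headers name Cell Ranger 4, and the study's methods name Space Ranger V1.0. Counts were summed over spots called tissue, for NEJ146 over spots with at least 8000 UMIs. Groups are the tissues of the labels. Of 4992 spot barcodes in any library, 4989 occurred in every one, since they mark positions of the slide.

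For the terciles, spots with at least 1000 UMIs (and 10 marker UMIs for the lobule) were used, and summed counts were tested in edgeR 4.0.16 (R 4.3.3; TMM, filterByExpr, quasi-likelihood test, tissue as block, adjusted p threshold 0.05), with DESeq2 1.42.0 as an alternative. The terciles of NEJ146 were set in each section and then summed. Tested on simulated data for the lobule comparison (12539 genes), 92 of 100 genes changed 2-fold were recovered. Of those changed 1.5-fold, 75 of 100 were recovered, with 18 false calls. For Afp (13540 genes) the values were 77 and 40 of 100 with 10 false calls. For mitosis (13465 genes) they were 86 and 58 of 100 with 15 false calls. In the measured Afp split edgeR called 0 of 13540 genes, and Afp itself was not called. Whether the recovered shares hold for the measured splits was not tested. Tables were handled with Python 3.11.15, numpy 2.4.6, pandas 2.3.3, scipy 1.17.1 and matplotlib 3.10.9. The members and the gene lists were chosen with earlier results of these data known. The text names all 9 members, of each list mainly the genes of largest difference among those that passed, and the 5 genes of most similar profile, and the partner genes and single list genes beyond these were picked after their values were seen. Alternatives covered the tool, scaling, filter, block, share of spots, spot depth, markers, grid and left-out tissues. Leaving out NEJ146 or NEJ638 from the levels, the values within each liver, and the split of each NEJ146 section were added after seeing the data. Results of a few listed genes are not reported here.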

Additional observations from a re-analysis of the deposited data

Results flagged for a closer look

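Among the 4 sections of NEJ146, Me1 was 28.2 CPM in section 2 against 23.6 to 23.9 CPM in the others, a gap of 0.919 of the whole range, and chance marks about 1 in 20 groups of this size in such a comparison. Fasn had opposite signs between livers, with a log2 ratio of pericentral over periportal CPM of 0.19 in NEJ677 and -0.50 in NEJ654. Scd1 differed in the same way, with 0.43 in NEJ638 and -0.27 in NEJ654. Within the tumours, the log2 ratio of Scd1 between the Afp-high and the Afp-low tercile was 0.90 in NEJ634 and -1.92 in NEJ146. With 1 tissue on each side, none of these differences between tissues was tested.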

How the results depend on the processing

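With median-of-ratios size factors, 2 members (Thrsp and Srebf1) were at least 2-fold higher in NEJ638 than in every other tissue (0.355% of genes), and 5 were higher in every liver (Fasn, Acly, Scd1, Thrsp and Me1). Without NEJ638, 1 member (Srebf1) was lower in the livers than in every tumour, by less than the spread between NEJ146 sections. Across the lobule, 2 members (Me1 and Elovl6) were higher in the pericentral tercile with no filter on low counts (6.98% of genes), and 0 were higher on either side without the tissue block. Leaving out 1 liver gave 1 to 2 members higher in the pericentral tercile (2 without NEJ654, Me1 and Scd1, against 3.75% of genes) and 2 to 3 in the periportal one (3 without NEJ638, with Thrsp, against 7.02% of genes). DESeq2 called 1 member higher for Afp (Elovl6, against 1.07% of genes) and 1 lower with mitosis (Thrsp, against 2.41%), and edgeR without a filter also called 1 lower with mitosis (Thrsp, adjusted p = 0.019, against 1.65%).

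Acaca, near 0 across the lobule, changed sign to 0.0021 in DESeq2, 0.0058 with DESeq2 size factors in edgeR, 0.018 without a filter and 0.021 without the block, and ranged from -0.12 to 0.0995 when 1 liver was left out. In the same way Fasn ranged from -0.23 to 0.15 and Scd1 from -0.00021 to 0.40. Without 1 tumour, Scd1 ranged from -0.72 to 0.40 for Afp (0.40 without NEJ146) and Acaca from -0.0022 to 0.070 for mitosis. The cause was not tested.

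Over all genes across the lobule, DESeq2 called 475 higher in the pericentral and 479 in the periportal tercile, edgeR without the block 27 and 30, and edgeR without NEJ654 474 and 555. For Afp, DESeq2 called 145 higher and 197 lower, no filter 1 and 50, and a cut into 4 parts in place of 3 gave 0 and 12, as did leaving out NEJ687. For mitosis, DESeq2 called 140 and 324, no filter 163 and 344, the cut into 4 parts 5 and 3, no block 0 and 0, leaving out NEJ687 3 and 40, and leaving out any other tumour 0 and 0. No paired analysis was possible between tissues, beyond the terciles paired within tissue by the block, because only NEJ146 has more than 1 replicate number and its numbers are sections of 1 tissue. Pnpla3 had at most 29 UMIs in a section, and the part of depth and of the 5323 bases it shares with a same-strand transcript was not tested.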
